A study of Homo sapiens with 3 samples.

Results

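The genes of 7 proteins that, like Idax, carry a CXXC zinc finger were examined for binding of Idax to their own loci: KDM2A, KDM2B, KMT2A, KMT2B, CXXC1, MBD1 and FBXL19. Members were the peaks that overlapped, by at least 1 bp, a fixed hg19 window around each gene, and they numbered 17 of the 17089 peaks in the list of wild-type Idax (0.0995%) and 0 of the 38 peaks in the list of its DNA-binding mutant. All 7 windows held at least 1 wild-type peak. Chromatin immunoprecipitation with sequencing had been done in HEK293T cells, which stem from human embryonic kidney and express SV40 large T antigen, with an agarose gel coupled to anti-c-Myc. The 3 stable lines carried wild-type Myc-Idax, its DNA-binding mutant Myc-IdaxDBM or an empty vector, and the sources used here do not say whether a line was 1 clone. Each peak list was called over the empty-vector cells, whose own reads were not analysed here. The design names 2 replicates for each condition, how they were combined is not stated, and 1 list of each was analysed, so no value below has a replicate error and no test between the lines was possible. The number of reads behind a peak is unknown. Each construct sat in its own line, and the amount of tagged protein in each line was not analysed here, so that DNA binding and protein amount cannot be told apart as the source of a difference between the lists.

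The CXXC finger is a small zinc-binding domain rich in cysteine that recognises CpG when its cytosine is not methylated, which brings proteins that carry it to CpG islands. KDM2A and KDM2B are F-box proteins that demethylate lysine of histone H3, and KDM2B also brings a variant Polycomb complex to CpG islands. KMT2A and KMT2B, known earlier as MLL proteins, methylate histone H3 at active or poised promoters, and KMT2A is known for its rearrangements in leukaemia. CXXC1, also called CFP1, is a subunit of the SETD1 histone methyltransferase complexes. MBD1 joins a domain for methylated CpG with CXXC fingers, and FBXL19 is an F-box protein related to the KDM2 pair. Idax itself, encoded by CXXC4, was described as an inhibitor of Wnt signalling and as a partner of TET2.

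CpG is the letter pair that the finger reads, so the start regions of these genes are shown with each CG in capitals. The sequences are from RefSeq on GRCh38.p14, 250 bases before the annotated start, 5′ to 3′ on the strand of the gene. The peaks are on hg19, and the builds were not aligned, so no peak is placed on these sequences. KDM2A is shown with both of its annotated starts because they differ in CpG, KMT2B because it had the highest CpG number of the 7 genes together with KDM2A, FBXL19 because its window held the strongest peak, and MBD1 and CXXC1 because they are neighbours with equal CpG numbers.
KDM2A entry 1 (chr11:67119013-67119262, plus strand): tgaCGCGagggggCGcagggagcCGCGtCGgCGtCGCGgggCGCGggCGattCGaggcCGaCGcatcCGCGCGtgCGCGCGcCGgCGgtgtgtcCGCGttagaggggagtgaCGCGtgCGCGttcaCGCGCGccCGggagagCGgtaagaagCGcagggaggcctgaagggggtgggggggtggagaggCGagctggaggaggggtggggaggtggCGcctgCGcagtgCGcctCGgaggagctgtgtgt
KDM2A entry 2 (chr11:67239764-67240013, plus strand): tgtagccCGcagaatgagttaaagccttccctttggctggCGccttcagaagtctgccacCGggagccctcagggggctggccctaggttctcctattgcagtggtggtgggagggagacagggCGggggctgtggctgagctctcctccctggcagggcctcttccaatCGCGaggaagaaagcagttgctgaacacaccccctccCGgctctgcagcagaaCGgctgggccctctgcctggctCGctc
KMT2B entry 1 (chr19:35717753-35718002, plus strand): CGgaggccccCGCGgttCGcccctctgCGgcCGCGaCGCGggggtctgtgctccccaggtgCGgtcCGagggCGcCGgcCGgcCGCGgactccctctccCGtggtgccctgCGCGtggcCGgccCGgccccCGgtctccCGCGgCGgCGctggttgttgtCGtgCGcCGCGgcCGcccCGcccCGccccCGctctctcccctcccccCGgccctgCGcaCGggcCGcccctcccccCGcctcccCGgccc
FBXL19 entry 1 (chr16:30922601-30922850, plus strand): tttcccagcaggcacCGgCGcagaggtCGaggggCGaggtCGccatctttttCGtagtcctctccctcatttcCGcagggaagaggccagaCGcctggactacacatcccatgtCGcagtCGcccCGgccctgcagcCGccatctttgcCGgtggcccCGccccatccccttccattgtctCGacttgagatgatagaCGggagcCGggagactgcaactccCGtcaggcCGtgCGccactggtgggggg
MBD1 entry 1 (chr18:50281768-50282017, minus strand): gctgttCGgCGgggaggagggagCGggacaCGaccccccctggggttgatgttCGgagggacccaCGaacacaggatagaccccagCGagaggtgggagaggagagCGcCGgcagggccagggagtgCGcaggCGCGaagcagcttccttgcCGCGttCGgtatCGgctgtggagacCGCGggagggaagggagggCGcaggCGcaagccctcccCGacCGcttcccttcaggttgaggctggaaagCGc
CXXC1 entry 1 (chr18:50287693-50287942, minus strand): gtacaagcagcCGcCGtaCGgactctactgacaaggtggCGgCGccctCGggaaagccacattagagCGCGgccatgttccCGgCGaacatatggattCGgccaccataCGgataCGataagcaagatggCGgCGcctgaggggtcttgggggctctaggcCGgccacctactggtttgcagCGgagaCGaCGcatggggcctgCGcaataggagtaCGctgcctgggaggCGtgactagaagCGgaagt

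The RefSeq table held 14 start entries for the 7 genes, and every gene was matched. The dinucleotide CG reads the same on both strands, and 93.9% of all 35116 entries held at least 1 in these 250 bases. Entry 1 of KDM2A held 40 CG, as did the KMT2B entry, against a median of 11 over all entries (quartiles 3 and 23). Entry 2 of KDM2A, which starts 120.8 kb downstream of entry 1, held 9. KMT2A had 31 CG, MBD1 and CXXC1 had 23 each, and the 4 FBXL19 entries had between 14 and 26. The 4 entries of KDM2B were split, with 34 and 32 in entries 4 and 2 and 13 and 11 in entries 1 and 3. More CG than the median entry were found in 12 of the 14, where 48.5% of all entries lay above it. A GC content above 50% together with an observed over expected CpG ratio above 0.6, the usual pair of marks of a CpG island, was met by 11 of the 14 entries (78.6%) and by 44.6% of all entries. Each of the 7 genes had at least 1 such entry, as did 47.9% of all 27305 genes. KDM2B and FBXL19 have 4 entries each, which makes at least 1 easier to reach. Entries of 1 gene can overlap, as those of FBXL19 do, and are not independent.

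**Figure D1:**
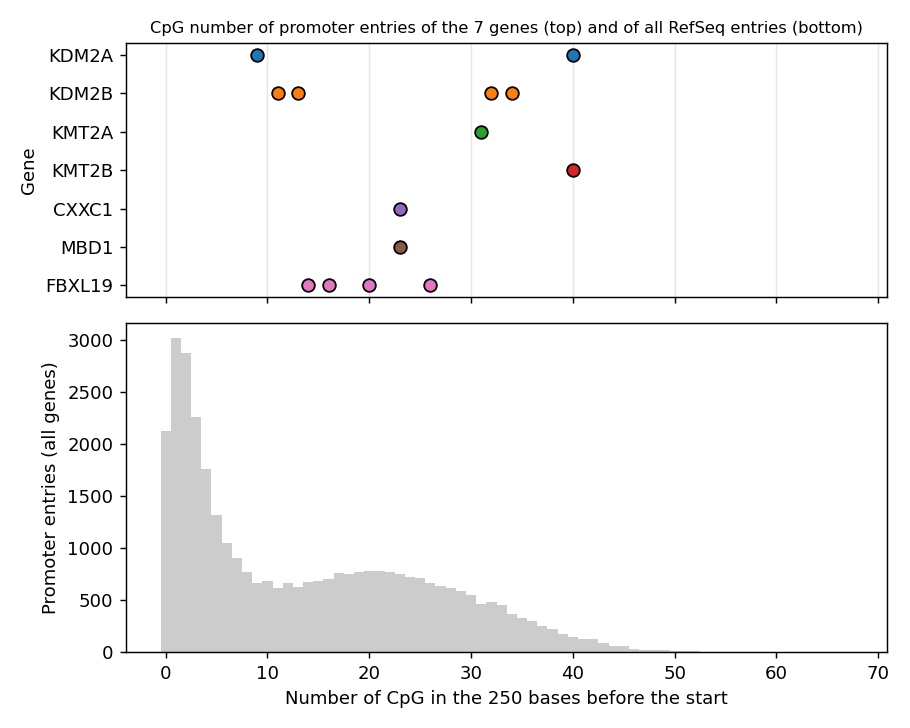
Number of CpG in the 250 bases before the annotated start. Top: each point is 1 start entry of the named gene, on the same horizontal axis as below. Bottom: number of entries of all genes per CpG number. KDM2A has entries at 40 and at 9, KMT2B at 40, and MBD1 and CXXC1 both at 23.

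Both genes of the H3 methyltransferase pair had a strong peak, well inside the upper quartile of the list. The score is the authors' value and has the form of the score MACS writes for a peak. It is compared only within the wild-type list, whose median was 223.42 (quartiles 109.34 and 407.78). Its scale is not stated, so a ratio of scores is not a fold difference in binding. Strong and weak refer to the score alone. The KMT2A window (chr11:118297000-118408000, 111.0 kb) held 2 peaks. The first, at chr11:118305046-118307372, was 2327 bp wide and scored 813.93, which placed it at rank 850 of the list and rank 27 of the 855 peaks on the chromosome. The second, at chr11:118400803-118402479, scored 198.86 over 1677 bp and lay 93430 bp further on, near the other end of the window. Its score was thus 4.09 times lower than that of the first, and only 9.1% of wild-type peaks of like width (within 10%) scored lower than the second, against 78.4% for the first. The second lay 5521 bp from the window's end, and TTC36 and TMEM25 are the next genes in that direction in the RefSeq order, so it was not assigned to KMT2A.

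KMT2B, the paralogue of KMT2A, had the most crowded window, with 4 peaks in 41.0 kb (chr19:36199000-36240000). The peak at chr19:36207377-36208988 scored 638 over 1612 bp (rank 1688). The other peaks lay together at the far end of the window, between 32.6 and 40.4 kb from its start. They were at chr19:36230914-36232309 with a score of 389.21, at chr19:36235498-36236826 with 271.62 and at chr19:36238981-36239864 with 585.58. The last was only 884 bp wide and scored above 98.5% of the 2614 wild-type peaks of like width, the highest such share among the 17 members. Peaks covered 12.73% of the window. Of 73052 consecutive tiles of this length along the genome, 0.472% held at least 4 wild-type peaks and 17.4% held at least 1. The surroundings are also dense, with 32 wild-type peaks within 500 kb of the window's centre. KMT2B is 20.9 kb long in RefSeq (GRCh38.p14), so the window runs well past it, and IGFLR1, U2AF1L4, PSENEN and LIN37 follow it in order. The 3 peaks at the far end were therefore not assigned to KMT2B.

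The strongest peak of KMT2A scored 1.28 times that of KMT2B. With 1 list there is no error to set against this ratio. The lowest member of the KMT2B window (271.62) still exceeded the median of the list, whereas the second peak of the KMT2A window did not. Neither peak was assigned to its gene.

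The strongest peaks in the windows of the demethylase genes, 161.6 for KDM2A and 291.93 for KDM2B, scored below those of KMT2A and KMT2B. That of KDM2B still exceeded the second peak of the KMT2A window (198.86). A difference between the pairs was not tested. The KDM2A window (chr11:66876000-67036000, 160.0 kb) held 3 peaks, all below the median score of the list. A pair at chr11:66885013-66886133 (score 88.2) and chr11:66886246-66887435 (score 125.17) was split by 112 bp. The third, at chr11:67006970-67008273, was the strongest of the window with 161.6, at rank 10590. All 3 were weak for their width, with 5.1%, 12.3% and 15.6% of wild-type peaks of like width scoring lower. The middle of the third lay 122.0 kb from that of the first and 120.8 kb from that of the second on hg19. In RefSeq the 2 annotated KDM2A starts are 120.8 kb apart on GRCh38.p14. These are distances within each build, and the builds were not matched. The entry with 40 CG and the entry with 9 CG printed above are these 2 starts.

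KDM2B had 3 peaks in 174.0 kb (chr12:121856000-122030000), with scores that differed by 2.84 times from the lowest to the highest. The peak at chr12:122018026-122019356 scored 291.93, the only one of the 3 above the median of the list. The peak at chr12:121974397-121976479 was wide (2083 bp, wider than 92.6% of wild-type peaks) but scored 199.87, and 5.0% of peaks of like width scored lower. The peak at chr12:121904661-121905572 scored 102.92 over 912 bp. The strongest and the weakest were 113.6 kb apart from middle to middle on hg19. Entries 1 and 4 of KDM2B are 113.6 kb apart on GRCh38.p14, again without a match of the builds. Entries 2 and 3 start 0.8 and 1.4 kb from entry 1, so other pairs of entries also come close to this distance. No pair of KDM2B entries had a distance near the 43.3 kb between the strongest and the wide peak. The strongest peak of KDM2B scored 1.81 times that of KDM2A.

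MBD1 and CXXC1 are neighbours on chromosome 18, and their windows adjoin. The MBD1 window held 2 peaks in 25.5 kb (chr18:47783000-47808499) that differed by 6.05 times in score, the widest ratio within a window of the 7. The peak at chr18:47807521-47808492 scored 482.41 over 972 bp, above 94.4% of peaks of like width, and was at rank 26 of the 219 on the chromosome. The peak at chr18:47792546-47793192 was the weakest and narrowest of all 17 members, with a score of 79.75 over 647 bp. MBD1 is 14.9 kb long in RefSeq (GRCh38.p14), and the middles of the 2 peaks lay 15.1 kb apart on hg19. CFAP53 is the next gene on that side, so the weaker peak was not assigned to MBD1. CXXC1 had 1 peak in 16.5 kb (chr18:47808500-47825000), at chr18:47813691-47814695, with a score of 189.93 over 1005 bp. It was close to the middle of its width class, with 48.1% of like peaks scoring lower. The stronger MBD1 peak ended 7 bp before the border of the windows and began 24521 bp inside the MBD1 window, so its assignment to MBD1 and not to CXXC1 rests on where that border lies. From it to the CXXC1 peak the gap was 5198 bp. Below these 3, the next wild-type peak lay 442.1 kb outside the MBD1 window at chr18:47339632-47340935 (score 189.77). The next above lay 76.1 kb outside the CXXC1 window at chr18:47901110-47901788 (score 93.34). Within 500 kb of the centre of either window there were 6 wild-type peaks, these 3 included. The usual spacing of peaks on the chromosome was not computed. The 2 start entries printed above have equal CG numbers, but their observed over expected CpG ratios were 0.98 for CXXC1 and 0.8 for MBD1. The strongest peaks of the 2 windows differed by 2.54 times in score.

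FBXL19 had the strongest peak of the 7 genes. At chr16:30932789-30935077 it scored 936.1 over 2289 bp, at rank 526 of the list and rank 23 of the 730 on chromosome 16. A second peak, at chr16:30968228-30969597, scored 647.15 over 1370 bp and exceeded 90.6% of peaks of like width. Both were thus above the upper quartile of the list, which held for no other window with more than 1 peak. The second lay 403 bp inside the far edge of the 46.0 kb window (chr16:30924000-30970000). FBXL19 is 25.9 kb long in RefSeq (GRCh38.p14), and ORAI3 and SETD1A, the latter a histone methyltransferase that works with CXXC1, follow it, so this peak was not assigned to FBXL19.

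**Figure D2:**
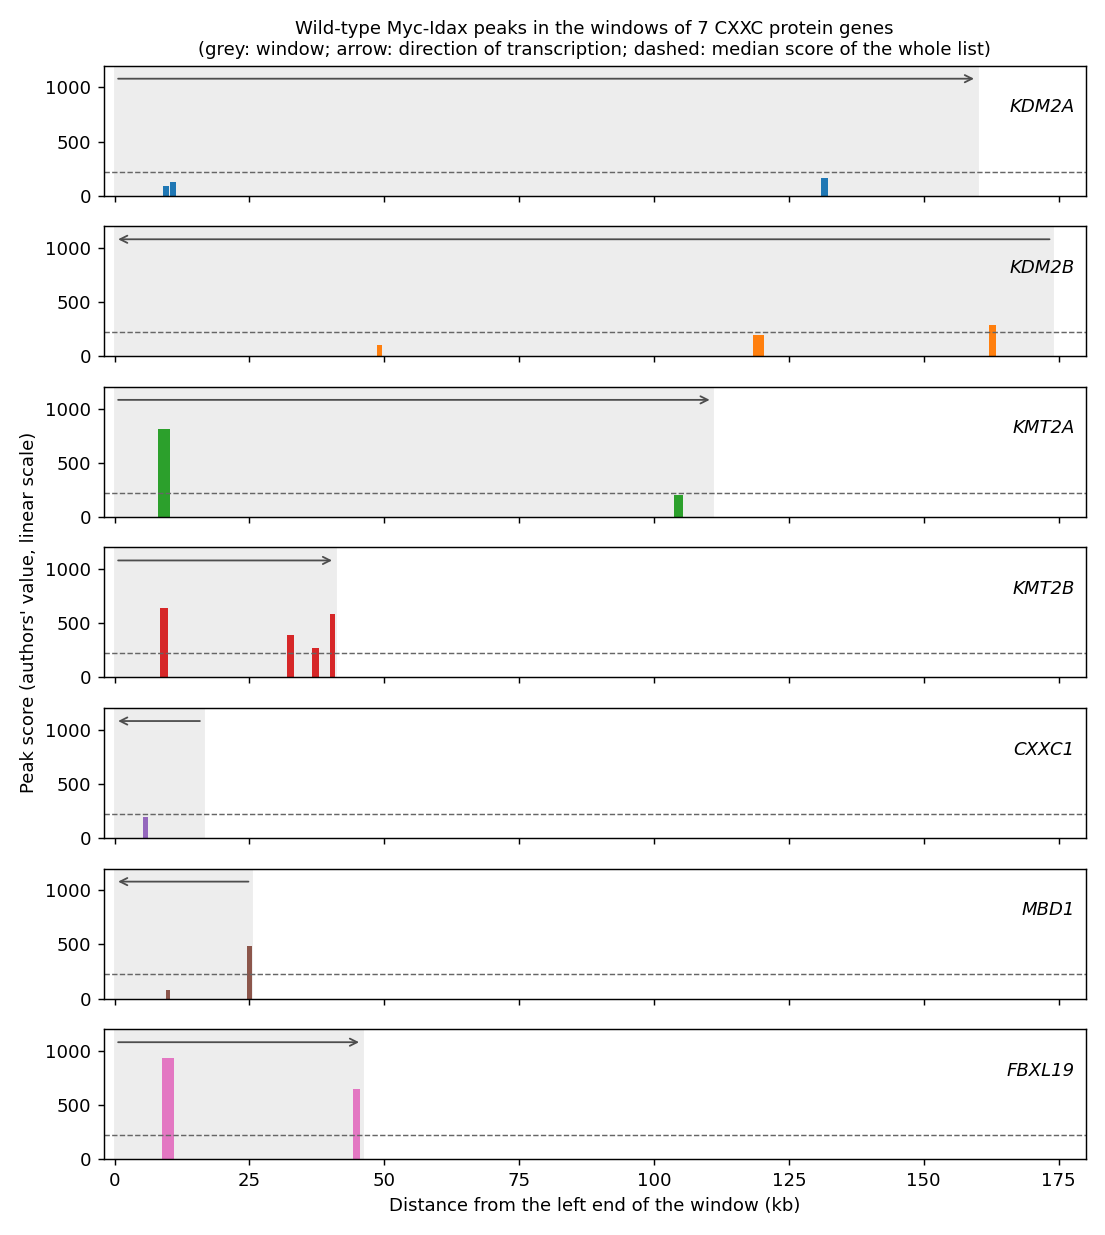
Map of the 7 windows, each drawn to the same scale from its left end (kb), with arrows for the direction of transcription. Bars are wild-type Myc-Idax peaks, with the authors' score as height on a linear axis and the width of the peak to scale, and the dashed line is the median score of the whole list, 223.42. The bars of FBXL19 and KMT2A reach 936.1 and 813.93, all 3 bars of KDM2A stay below the line, and no mutant peak lay in any window.

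In order of their strongest peak the genes were FBXL19 (936.1), KMT2A (813.93), KMT2B (638), MBD1 (482.41), KDM2B (291.93), CXXC1 (189.93) and KDM2A (161.6). With 1 list and no replicate error, positions in this order cannot be told apart, whether near or distant. In the same order, the highest CG numbers of a start entry were 26, 31, 40, 23, 34, 23 and 40. KDM2A also had an entry with 9 CG. A relation between score and CG number was not tested. Peaks were not placed on entries, so these values only stand side by side.

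In the RefSeq table KDM2A, KMT2A, KMT2B and FBXL19 are on the plus strand, and KDM2B, CXXC1 and MBD1 are on the minus strand. The hg19 start sites of the genes were not used here, so a distance from a peak to a start is not given.

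As a group the 17 peaks were spread over the range of scores. Their median score was 271.62 (quartiles 161.6 and 585.58). Of them, 9 scored above the median of the list (52.9%, exact 95% Clopper-Pearson interval 27.8 to 77), against 50.0% of all wild-type peaks. Above the upper quartile were 6 of the 17 (35.3%, interval 14.2 to 61.7), against 25.0% of the list, and all 6 were in the windows of KMT2A, KMT2B, MBD1 and FBXL19. At or below the lower quartile were 3 (17.6%, interval 3.8 to 43.4), against 25.0%, namely 1 each in the windows of KDM2A, KDM2B and MBD1. Member peaks were 647 to 2327 bp wide, and 12 of the 17 were wider than the list's median of 1116 bp (70.6%, interval 44 to 89.7, against 50.0%). For their width, 8 of the 17 scored above the median of like peaks (47.1%, interval 23 to 72.2), against 50.7% of the list. Each of these 5 intervals includes the share in the whole list. The intervals cover counting error only and treat the peaks as independent, although peaks of 1 window share a locus.

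**Figure D3:**
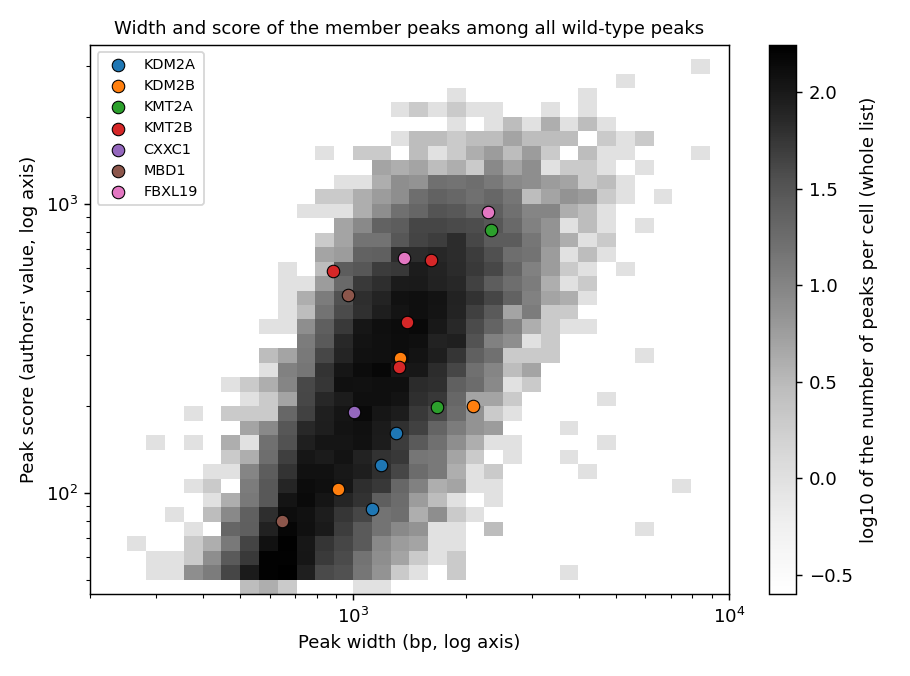
Width (bp) and score of the 17 member peaks, as coloured points by gene, on log axes over the density of all 17089 wild-type peaks in grey. The 3 peaks of KDM2A, the second KMT2A peak at 1677 bp and the wide KDM2B peak at 2083 bp lie toward the low edge of the cloud for their width, and the 884 bp peak in the KMT2B window lies at the high edge.

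In terms of sequence covered, wild-type peaks took up 23.4 kb of the 574.0 kb in the windows (4.09%), against 0.707% of the span of the chromosomes. The share was lowest at KDM2A (2.26%) and KDM2B (2.49%), whose windows are the longest. It was 3.61% at KMT2A, 6.09% at CXXC1, 6.35% at MBD1, 7.95% at FBXL19 and highest at KMT2B. These shares and the tile shares below count every peak in a window, including peaks that were not assigned to its gene. In the KMT2B window peaks covered 5221 bp, of which the peak at chr19:36207377-36208988 made up 1612 bp. The rest came from the far-end peaks, so its place in this order is that of the window and not of the gene. Tiles of the same length along the genome that held at least 1 wild-type peak made up 41.4% for KDM2A, 43.2% for KDM2B, 34.0% for KMT2A, 19.0% for FBXL19, 12.0% for MBD1 and 8.49% for CXXC1. Tiles with at least as many peaks as the window made up 11.3% for KDM2A, 12.8% for KDM2B, 15.3% for KMT2A, 5.31% for FBXL19 and 2.41% for MBD1. Tiles covered at least as far as the window were fewer for 6 of the 7 genes, with 8.93% for KDM2A, 7.40% for KDM2B, 4.25% for KMT2A, 1.14% for FBXL19, 0.311% for KMT2B and 5.34% for CXXC1, but more for MBD1, with 3.88%. Tiles include sequence without genes and unassembled sequence, while every window was placed on a gene, and the windows were not compared with those of other genes.

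**Figure D4:**
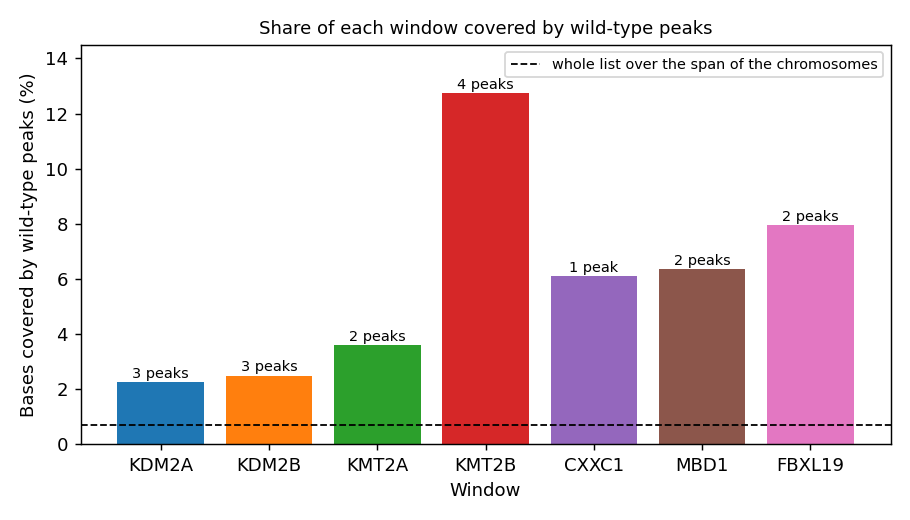
Share of bases (%) covered by wild-type peaks in each window, with the number of peaks above each bar; the dashed line is the share over the span of the chromosomes, 0.707%. All 7 bars lie above the line, from 2.26% at KDM2A to 12.73% at KMT2B. Every peak in a window is counted, also those not assigned to its gene. For a short window 1 peak is enough to pass the line, as at CXXC1 (6.09%).

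No peak of the mutant lay in any of the 7 windows, and 0 of the 17 wild-type peaks was overlapped by one. Over the whole list 0.0585% of wild-type peaks were overlapped, a share so small that nothing about the members is read from their count. The mutant list contains only peaks with scores of 50.43 or more, and a weaker signal in the windows would not be in it. The nearest mutant peaks lay 2.01 Mb from the KDM2A window and 3.48 Mb from that of KMT2A. They lay 16.04 Mb from the FBXL19 window and 25.41 and 25.44 Mb from those of MBD1 and CXXC1. Chromosomes 12 and 19, with KDM2B and KMT2B, held 0 mutant peaks.

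At the edges of the windows, the peaks just inside were the stronger MBD1 peak (7 bp from the border), the last KMT2B peak (136 bp) and the second FBXL19 peak (403 bp). Just outside lay peaks 5.0 kb below the KMT2B window (chr19:36192950-36193973, score 231.82), 8.6 kb above it (chr19:36248584-36249762, score 385.1) and 9.8 kb below the FBXL19 window (chr16:30912978-30914190, score 126.7). The windows of KDM2A, KDM2B and KMT2A had no further peak within 10 kb, and their nearest outside peaks were 19.7, 17.1 and 24.2 kb away.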

How the data were processed

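Binding was measured by ChIP-seq in 3 HEK293T lines, and 2 peak lists were analysed, wild-type Myc-Idax and Myc-IdaxDBM, each over empty vector per the series' design text. Tools in the submitters' processing notes are MACS 1.4.1 and Bowtie 0.12.7, with build hg19. The way replicates were combined and the caller's threshold are not given in the sources used here. Each peak has a single value, a score deposited by the authors without a stated scale. Depth per sample is unknown.

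Starts were converted to 1-based positions. Peaks were taken by overlap (1 bp) with the 7 windows. Scores were ranked within the wild-type list, also among peaks within 10% of the same width. Consecutive tiles of each window's length, laid along each chromosome between its outermost wild-type peaks, served as background. CpG was counted in RefSeq start entries of GRCh38.p14, without the 50 bases after the start, and gene names, order and lengths came from that assembly. The text names the 7 genes, all peaks in their windows and neighbouring genes. The members and lists were chosen with earlier results of these data known. The counting was tested on simulated peaks. A planned comparison of CXXC domain sequences was not run, since no protein sequence was used here. Alternatives were a minimum score of 100, windows wider by 10 kb, assignment by the middle, merging within 1 kb, shifted tiles and CpG number in place of ratio. The work used pandas 2.3.3, matplotlib 3.10.9, SciPy 1.17.1 and numpy 2.4.6 under Python 3.11.15.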

Additional observations from a re-analysis of the deposited data

How the results depend on the processing

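Replicates could not be left out in turn, since both conditions came as 1 list. No paired analysis was possible because the lists carry no replicates. The 7 windows all kept a wild-type peak at a minimum score of 100, in wider windows and with assignment by the middle of the peak. The wider windows were extended by 10 kb, with the border between MBD1 and CXXC1 kept. No mutant peak entered the wider windows or was assigned by its middle. At a minimum score of 100 the mutant count was fixed at 0 in advance, since the highest mutant score was 94.45. The wild-type count was 15 at a minimum score of 100, 20 in wider windows, 17 by the middle and 16 with peaks within 1 kb merged. The median score was 291.93 at a minimum score of 100, 251.72 in wider windows and 281.77 after merging. The covered share was 3.78% at a minimum score of 100 and 3.72% in wider windows. At a minimum score of 100 the MBD1 window had 1 peak in place of 2 and the KDM2A window had 2 in place of 3. Merging also left the KDM2A window with 2. Among tiles with at least 1 wild-type peak, a background chosen after seeing the data, those with at least as many peaks as the window made up 2.71% for KMT2B, 20.1% for MBD1, 27.3% for KDM2A, 28% for FBXL19, 29.7% for KDM2B and 45.1% for KMT2A. For CXXC1, with a single peak, the share is 100% by construction. Shifting the tiles moved none of the 7 shares of tiles covered at least as far as the window by more than 1.5 times. Counting CpG in place of the ratio took 1 of 14 start entries, KDM2B entry 3, from above the median (percentile 51.6 by ratio) to the median itself. It held 11 CG, the median number, and its percentile of 49.7 by number counts only entries with fewer. The comparison of CXXC domains was not run.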
